A study of Mus musculus with 4 samples.

Results

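Follicular naive B cells with a kappa light chain made up 4435 of the 26825 barcodes kept from 4 mouse liver libraries. A barcode was a member when it held at least 1 UMI (a unique molecular identifier, the tag that counts one captured transcript) of Cd79a, the signalling chain that all B cells carry, and at least 1 of Fcer2a, the low-affinity IgE receptor CD23 of follicular B cells. It also held no UMI of Agbl1, Sox5, Zbtb32, Ahnak2 or Lmo7, genes of B-1-like cells, and none of the T cell genes Cd3e and Cd3d. Fewer than 10 UMIs of Prg4, a gene of peritoneal macrophages, were allowed, and at least as many UMIs of Igkc, the kappa constant gene, as of the lambda constant genes Iglc1, Iglc2 and Iglc3 together were required. The cells were thus chosen by measured UMIs of these genes, so the values of the genes of the rule are descriptions.

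Mature naive B cells leave the bone marrow, recirculate through blood, spleen and lymph nodes, and rest in follicles until they meet antigen. They carry IgM and IgD together on the surface through alternative splicing of one heavy chain transcript, and each cell normally makes 1 light chain, kappa or lambda. CD23 is characteristic of the follicular type, which also carries the complement receptor encoded by Cr2. B-1 cells, the main B cell of the body cavities, arise largely in fetal life, carry much IgM and little IgD, and use a restricted set of antigen receptors.

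The libraries came from fine-needle aspiration (FNA) biopsies of livers of male C57BL/6J mice that were 7 weeks old at the start and ate an FPC diet (fructose, palmitate, cholesterol and trans-fat), which drives steatotic liver disease. P-LC24 came from mice given 0.05% cholesterol for 24 weeks and P-HC24 from mice given 1.25% cholesterol for 24 weeks. I-LC32 and I-HC32 came from the same 2 groups of mice at week 32, after all of them had eaten 0.05% cholesterol for 8 further weeks. P-HC24 and I-HC32 are called the high-cholesterol libraries after the first diet only. Each library pooled 12 biopsies, 4 from each of 3 mice, so each condition had 1 library, no mouse can be traced, and no library came from mice outside the FPC diet. Differences between libraries are therefore given with 95% intervals that cover counting error only, and without a test of diet. Runs of 4 values are in the order P-LC24, then P-HC24, I-LC32 and last I-HC32, unless said otherwise.

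The labels call the material non-parenchymal liver cells. Over all kept barcodes of a library, the 10 hepatocyte markers summed to between 43.2 and 237 CPM (UMIs of a gene for every 1000000 UMIs summed over the cells), led by Trf, and Alb, the serum albumin gene, was seen in between 0.553% and 1.61% of barcodes. Of Clec4f, a defining gene of Kupffer cells, 3, 0, 2 and 2 barcodes held a UMI. The 10 Kupffer cell markers summed to 38.3, 170, 42.0 and 251 CPM, led by Cd5l, a secreted macrophage protein, at 25.0, 118, 31.9 and 172 CPM. The 12 peritoneal macrophage markers summed to 538, 2737, 604 and 3533 CPM. Alb and Clec4f, which define cells of the labelled organ, were thus near 0, and both macrophage lists were several-fold higher in the libraries of mice first fed high cholesterol than in the others.

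By library, the members numbered 1443, 1077, 1187 and 728. They held 8388769, 5908359, 6510648 and 4134758 UMIs in total, with a median of 5326, 4991, 4879 and 5310 UMIs per cell and 1979, 1819, 1901 and 2042.5 genes per cell. Thinned to 2000 UMIs per cell, which left out 12, 5, 9 and 8 shallower members, the median was 1024, 962, 1026 and 1050 genes. More than 5% of UMIs were mitochondrial in 10.9% of the members of P-LC24, 47.5% in P-HC24, 44.3% for I-LC32 and 17.4% for I-HC32, so the libraries differed in this sign of cell quality across both diets. P-LC24 and P-HC24 shared 2 member barcodes, and no other pair of libraries shared any.

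As a share of kept barcodes, the members were 28.1% (26.8 to 29.3, exact Clopper-Pearson interval) of 5142 in P-LC24 and 15.6% (14.7 to 16.5) of 6914 in P-HC24. At week 32 they were 16.0% (15.2 to 16.9) of 7418 in I-LC32 and 9.90% (9.23 to 10.6) of 7351 in I-HC32. At each week the share was lower in the library of mice first fed high cholesterol, and the intervals did not overlap. B-1-like kappa cells, which met the same limits with at least 2 UMIs over the 5 B-1 genes and no condition on Fcer2a, moved the other way, with 15.0%, 27.6%, 21.1% and 38.2% of kept barcodes. Shares of one library add up to a whole, and fewer follicular cells cannot be told apart from more cells of other types.

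Other denominators gave other sizes. Among barcodes with Cd79a, members were 41.9%, 21.3%, 22.3% and 13.2%. With the other Cd79a barcodes left out of the denominator, members were 46.0% (44.2 to 47.8) in P-LC24 and 36.8% (35.1 to 38.6) in P-HC24, then 36.1% (34.4 to 37.7) in I-LC32 and 28.5% (26.7 to 30.3) in I-HC32. The order of the libraries within each week held with all 3 denominators, and the intervals of P-HC24 and I-LC32 overlapped with each. Cells labelled here as T cells, with a UMI of Cd3e or Cd3d and none of Cd79a, were 19.1%, 14.6%, 20.3% and 13.3% of kept barcodes.

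**Figure D1:**
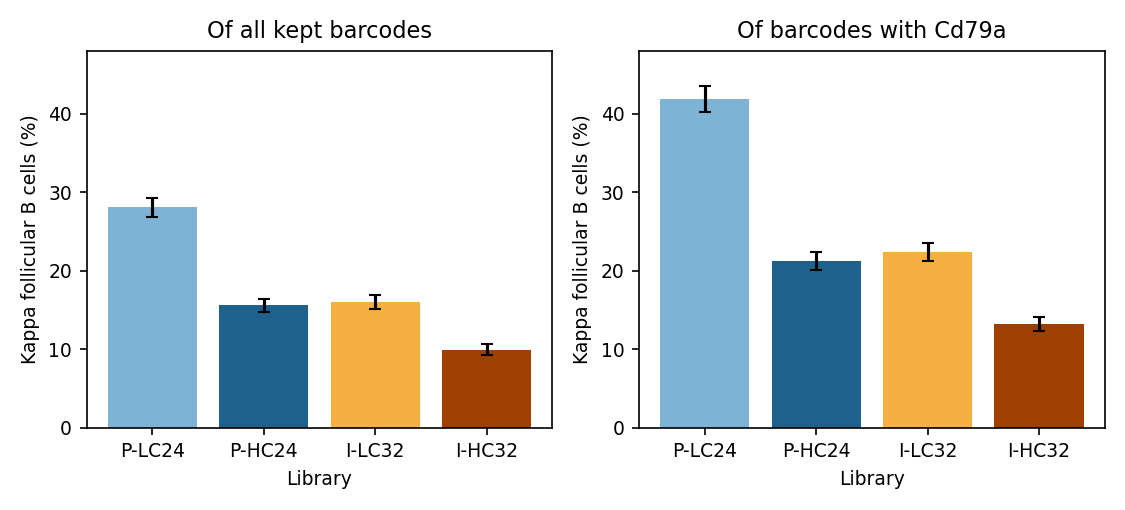
Kappa follicular B cells as a percentage of all kept barcodes (left) and of barcodes with Cd79a (right) in each of the 4 libraries, with bars for the share and lines for the exact 95% interval. The left bars read 28.1%, 15.6%, 16.0% and 9.90%, and the library first fed high cholesterol is the lower of each pair.

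The 5 genes that mark the type were all present in every library. Fcer2a, part of the rule, was at 412, 341, 369 and 328 CPM, against 1.03, 1.41, 1.04 and 1.5 CPM in T cells. Ighd, the constant gene of IgD, was at 742, 598, 579 and 505 CPM and was seen in 93.5%, 91.6%, 89.8% and 88.9% of members. In T cells, which do not express the gene and had deeper profiles (medians of 6384 to 8397 UMIs), 1.46% to 3.07% of cells held an Ighd UMI. A marker outside the rule was thus present in nearly all members of each library.

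Cr2, the complement receptor CD21, was at 142 CPM in P-LC24 and at 77.7, 84.8 and 84.4 CPM in P-HC24, I-LC32 and I-HC32. P-LC24 stood above the other libraries, which lay close together. The P-HC24 over P-LC24 log2 ratio was -0.87 (-1.03 to -0.71), and the I-HC32 over I-LC32 log2 ratio was -0.01 (-0.20 to 0.19). Vpreb3, a chaperone-like protein of the pre-B cell receptor, was at 189, 209, 159 and 112 CPM, lowest in I-HC32. Fcrl1, an Fc receptor-like coreceptor of B cells, was at 184, 133, 190 and 143 CPM, lower in the high-cholesterol library at both weeks, with log2 ratios of -0.47 (-0.60 to -0.35) and -0.41 (-0.55 to -0.27).

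**Figure D2:**
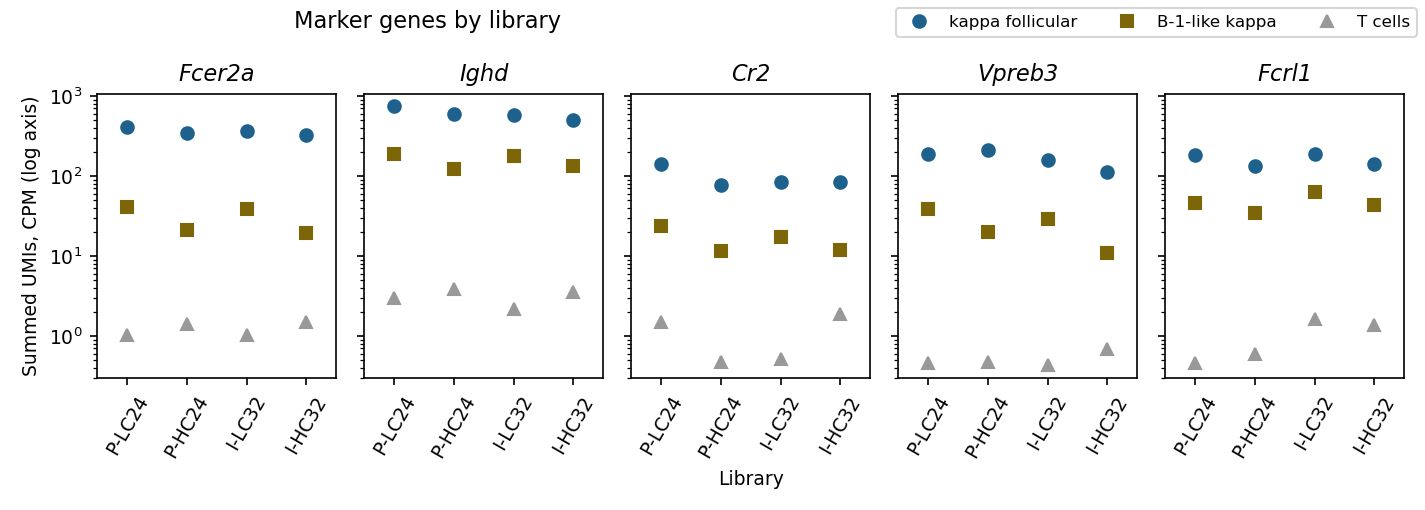
CPM (log axis) of the 5 marker genes in kappa follicular B cells (circles), B-1-like kappa cells (squares) and T cells (triangles) in each library. Circles lie between 77.7 and 742 CPM, above the squares of the same gene in every library, and T cells stay under 4 CPM. Fcer2a was used to choose the cells.

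The threshold on Fcer2a was a detection limit and did not split the cells cleanly. Exactly 1 Fcer2a UMI was held by 569, 570, 559 and 394 members, or 39.4%, 52.9%, 47.1% and 54.1%. Just outside, 646, 1051, 930 and 758 barcodes had no Fcer2a UMI and met the rest of the rule. Those neighbours held 577, 464, 472 and 409 CPM of Ighd, against 740, 584, 575 and 478 CPM in members with 1 Fcer2a UMI. Their Cr2 was 107, 51.6, 69.1 and 50.3 CPM, against 129, 71.3, 71.4 and 75.4. A further 105, 96, 133 and 88 barcodes were left out for a single UMI of a B-1 gene, and their Ighd, at 688, 523, 545 and 436 CPM, lay above that of B-1-like cells, which held 189, 121, 176 and 134 CPM.

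Some defining genes of other B cell states, chosen after their values were seen, had few UMIs or none. Mki67, a proliferation gene, had 2, 4, 7 and 4 UMIs in all members of the libraries. Jchain, the joining chain of secreted antibody, had 0, 1, 5 and 0 UMIs. Rag2, Igll1 and Dntt, genes of developing B cells, had no UMI in any library. Bhlhe41, a transcription factor of B-1 cells outside the rule, was at 2.15, 2.03, 2.46 and 3.14 CPM, against 67.5 to 91.1 CPM in B-1-like cells. Tbx21, a factor of age-associated B cells, was at 3.14 to 4.45 CPM, against 25.0 to 52.5 CPM in T cells.

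Marker lists of other B cell states were not all low in the members. The 9 transitional markers in the files summed to 1711, 1967, 1623 and 1770 CPM, led by Ly6d, and the 10 marginal zone markers to 687, 875, 816 and 860 CPM, led by Plac8. The 10 age-associated markers summed to 330, 249, 319 and 293 CPM, led by Zeb2. The 10 plasma cell markers summed to 176, 156, 203 and 205 CPM, led by Irf4, and the 12 B-1 markers to 181, 146, 82.3 and 134 CPM, led by Ptpn22. Of these 12, Agbl1, Sox5, Zbtb32, Ahnak2 and Lmo7 were at 0 by the rule, so the B-1 sum is a description. The 10 germinal centre markers summed to 95.7, 78.9, 85.4 and 94.3 CPM, led by Bcl6.

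RNA of other cell types was present in the members and differed between libraries. Hbb-bs, a haemoglobin chain of red cells, was at 6892, 3612, 7923 and 1419 CPM, and the 9 erythroid markers in the table summed to 14531, 7114, 15523 and 3029 CPM. The 10 neutrophil markers summed to 536, 256, 5.38 and 7.98 CPM, led by S100a8 in P-LC24 and by S100a9 in P-HC24. These markers were seen in 8.04%, 7.24%, 2.70% and 4.53% of members. The 10 monocyte markers summed to 172, 287, 196 and 491 CPM, led by Lyz2, the macrophage lysozyme. The 10 markers of mast cells and basophils summed to 25.3, 64.7, 34.9 and 141 CPM, led by Cma1. Of the 12 T cell markers, summed at 14.1, 12.02, 15.4 and 18.1 CPM, Cd3e and Cd3d were at 0 by the rule. From 22 myeloid genes the share of free RNA in the members was estimated at 10.3%, 3.5%, 9.39% and 4.67%. B cell RNA in T cells had another order, with Igkc at 35.9, 64.2, 46.1 and 105 CPM there, lowest in P-LC24. Whether the estimate holds for RNA of B cells was not tested. Of the 22 genes, Icam2 was at 40.5, 41.5, 37.8 and 45.2 CPM in members, with little difference between libraries. Whether members express any of the 22 themselves, which would raise the estimate, was not tested either. The profile of free RNA was taken from all barcodes called as cells, not from empty droplets.

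IgM and IgD were the isotypes of nearly all members. Ighm, the constant gene of IgM, was at 2089, 1683, 1596 and 1842 CPM, and the ratio of Ighd to Ighm UMIs was 0.355, 0.355, 0.363 and 0.274. In B-1-like cells of the same libraries that ratio was 0.0559, 0.0400, 0.0593 and 0.0402. More IgG, IgA or IgE than IgM and IgD together was held by 3, 2, 1 and 1 members, at most 0.208% of a library, with an upper exact limit of 0.763% in I-HC32. No member held an IgE UMI. Taken as 3 over the number of members, and not as an exact limit, this allows a share of cells with one of up to 0.208%, 0.279%, 0.253% and 0.412%.

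Igkc, which the rule compares with the lambda genes, was at 7586, 9023, 8313 and 9818 CPM, with medians of 40, 42, 41 and 50.5 UMIs per member. Lambda constant transcripts were found in the same cells, as 97.4%, 96.9%, 96.8% and 94.8% of members held at least 1 UMI of Iglc1, Iglc2 or Iglc3, with medians of 7, 5, 6 and 4 UMIs. At 2000 UMIs per cell, 88.7%, 86.1%, 85.9% and 77.9% of members held a lambda UMI, against 1.75%, 2.89%, 3.16% and 4.90% of T cells. The share in members was far above that background in all 4 libraries. B-1-like kappa cells were at 89.2%, 87.2%, 89.8% and 82.2%.

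The balance among the lambda genes differed between the B cell types. After thinning, members held 7.10, 6.28, 7.56 and 5.66 UMIs of Iglc2 and Iglc3 for each UMI of Iglc1, and B-1-like kappa cells held 3.83, 3.62, 3.59 and 3.63. The values did not overlap, and since the rule uses these genes no test was made. The lambda variable genes were low in lambda cells (the same rule with more lambda than kappa constant UMIs) too, with Iglv1 at 3.55 to 4.60 CPM in members and 14.0 to 44.2 CPM in lambda cells, and Iglv3 at 3.53 to 5.84 CPM against 7.02 to 22.1 CPM. The annotated Iglc2 and Iglc3 transcripts are 95.4% identical over 452 aligned bases, whereas Iglc1 and Iglc2 are 69.2% identical. Assignment of reads between Iglc2 and Iglc3 may be uncertain and was not tested. Iglc1 (chr16:18880368-18880821), Iglc3 (chr16:18883980-18884431) and Iglc2 (chr16:19017146-19019101) lie on the minus strand of GRCm39, and Igkc (chr6:70703419-70703950) on the plus strand of chromosome 6.

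**Figure D3:**
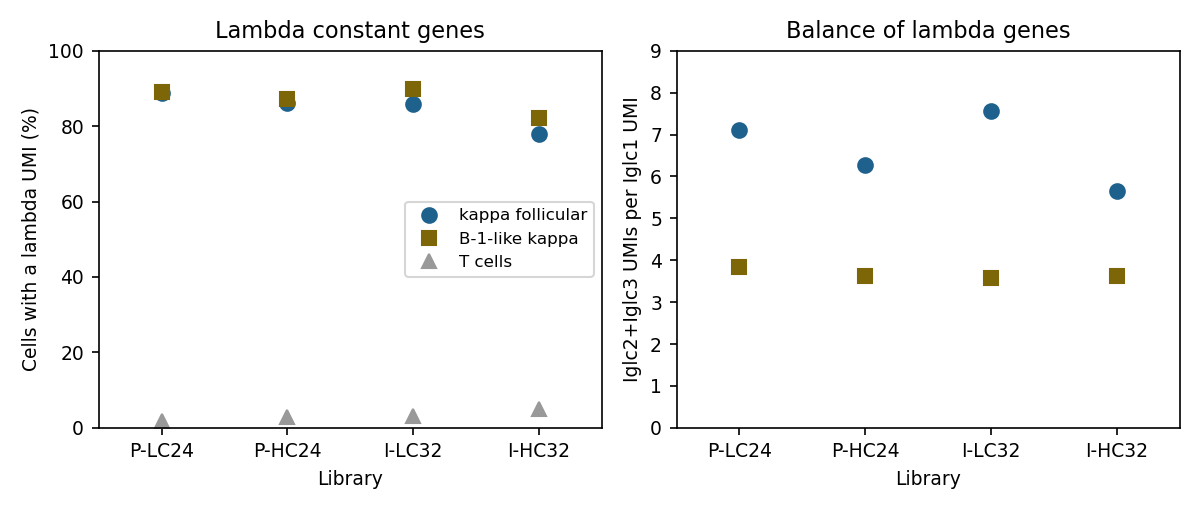
Left, percentage of cells with a UMI of Iglc1, Iglc2 or Iglc3 after thinning each cell to 2000 UMIs. Right, thinned UMIs of Iglc2 plus Iglc3 for each UMI of Iglc1. Circles are kappa follicular B cells, squares B-1-like kappa cells and triangles T cells (left only), with 1 point for each library. The circles lie at 77.9% to 88.7% on the left and at 5.66 to 7.56 on the right, and the squares at 3.59 to 3.83 on the right.

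Variable genes, which the rule does not use, were read at low depth. A single leading heavy chain V gene could be named in 468, 238, 209 and 120 members, mostly from 1 UMI. The most common was Ighv1-26 with 3.63% (2.13 to 5.75) of these in P-LC24, 5.46% (2.94 to 9.16) in P-HC24 and, in I-LC32, 4.78% (2.32 to 8.62). It was tied with Ighv1-81 in P-LC24 and with Ighv1-9 in I-LC32. In I-HC32 it was Ighv3-6 with 9.17% (4.67 to 15.8). In B-1-like kappa cells Ighv11-2 led every library, with 30.9%, 22.5%, 25.9% and 26.3%, and the exact intervals of the leading gene did not overlap between the cell types in any library. The effective number of heavy V genes, the inverse of the sum of squared shares, was 50.9, 43.6, 42.0 and 28.6 in members and 9.36, 15.1, 12.3 and 11.96 in B-1-like cells. It falls with fewer cells, so its order over the libraries is not read.

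Kappa variable genes were named in 625, 361, 277 and 205 members. Igkv1-117 led in P-LC24 (6.88%), I-LC32 (7.58%) and I-HC32 (9.27%, tied), and Igkv1-110 in P-HC24 (8.86%). Where both chains could be named, 208, 94, 52 and 40 members, the pair was seen once in 93.3%, 91.5%, 96.2% and 100% of cells. No heavy and kappa pair was held by more than 2 members of a library. In B-1-like cells the pair Ighv11-2 with Igkv14-126 made up 28.6%, 19.8%, 19.9% and 21.0% of such cells. V genes share sequence, and reads could be split between near copies.

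**Figure D4:**
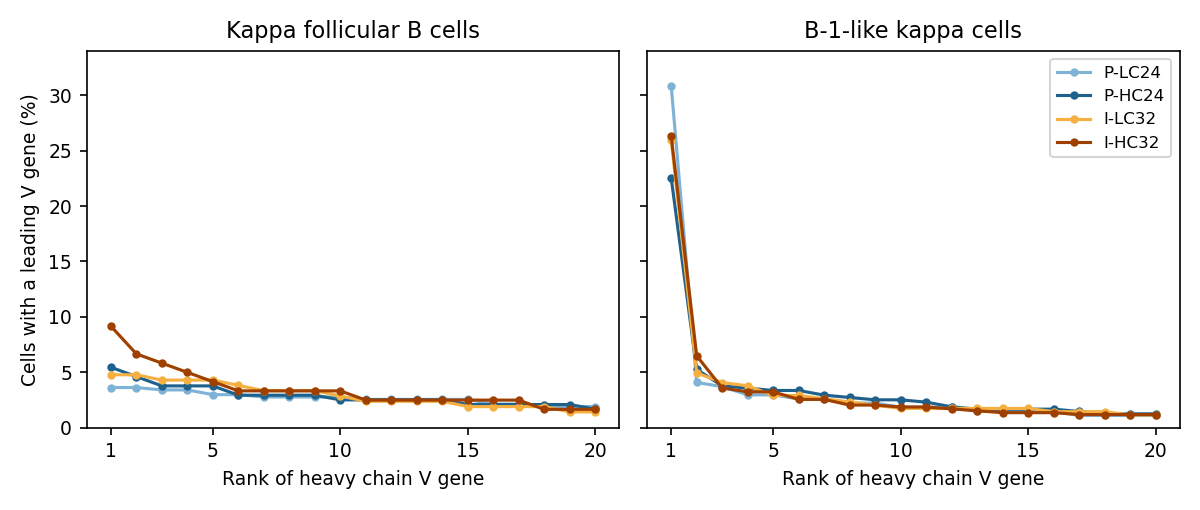
Percentage of cells held by each heavy chain V gene, for the 20 most common genes by rank in each library, in kappa follicular B cells (left) and B-1-like kappa cells (right). Lines are libraries, and the first gene holds 3.63% to 9.17% on the left and 22.5% to 30.9% on the right.

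B-1-like kappa cells gave a second point of comparison for the transcriptome. Of 2838 genes, 79 were at least 2-fold higher in members in all 4 libraries and 43 at least 2-fold lower. This was a description, since the rule uses genes of this contrast and B-1-like cells were deeper, with medians of 11043, 11641, 11212.5 and 11769 UMIs. Satb1, a chromatin organiser of lymphocytes, was at 1098, 953, 937 and 911 CPM in members and at 222, 168, 197 and 158 CPM in B-1-like cells. Rasgrp3, an activator of Ras downstream of the B cell receptor, was at 187, 115, 151 and 138 CPM against 37.9, 19.4, 36.7 and 22.3. The genes named here were picked with their values in view.

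Among genes lower in members, Il5ra, the interleukin-5 receptor on which B-1 cells depend, was at 77.0, 76.3, 106 and 121 CPM against 422, 310, 325 and 340 in B-1-like cells. Ccnd2, a cyclin of the G1 phase, was at 49.7, 58.2, 82.3 and 106 CPM against 404, 263, 317 and 420. Cd274, the checkpoint ligand PD-L1, was at 27.1, 18.4, 25.2 and 29.99 CPM against 111, 123, 78.4 and 103. In each of these the groups of libraries did not overlap. Vim, the intermediate filament vimentin, was also lower in the members of each library, with 438, 1092, 961 and 2248 CPM against 1848, 2604, 1946 and 3466.

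To see how the cells differed with the first diet, P-HC24 was set against P-LC24 (Prog) and I-HC32 against I-LC32 (Int), which share no library. In Int both groups of mice ate 0.05% cholesterol when sampled. In Prog, 5764 genes with a UMI in at least 10% of members of either library and at least 100 UMIs were compared, and the background was 847 genes (14.7%) higher by at least 1.2-fold and 2242 (38.9%) lower. In Int, 1006 of 5969 genes (16.9%) were higher and 518 (8.68%) lower. At 1.5-fold, 98 genes (1.7%) were higher and 426 (7.39%) lower in Prog, against 152 (2.55%) and 61 (1.02%) in Int. The median log2 ratio over all compared genes was -0.16 in Prog and 0.05 in Int, and after centring on it Prog had 1512 genes higher (26.2%) and 1191 lower (20.7%), whereas Int had 753 higher (12.6%) and 726 lower (12.2%). The share of higher genes among those past the limit went from 27.4% to 55.9% in Prog with centring, and from 66.0% to 50.9% in Int. Centring sets this balance near even by construction. Scaling instead to a total without immunoglobulin, ribosomal and mitochondrially encoded genes gave shares of 49.0% in Prog and 60.5% in Int. With the estimated share of free RNA subtracted, the higher genes numbered 829 and the lower ones 2338 in Prog, against 971 and 612 in Int. Medians of most lists in Prog are also given relative to the median of all genes.

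Prog ratios went with the length of the gene in the annotation. In members the median log2 ratio was 0.14 over the 1807 shortest genes, -0.16 over the 1806 of middle length and -0.36 over the 1807 longest. T cells of the same libraries gave 0.12, -0.22 and -0.46. In Int the members gave 0.05, 0.08 and 0.00. Lower ratios of long genes in Prog were thus seen in T cells too, and the part of gene length in the gene groups that follow was not tested.

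Genes of B cell receptor signalling, the kinases and adaptors that pass on antigen binding, were lower or within the limit in Prog. Of 23 compared, 0 were higher and 15 lower by 1.2-fold, with a median of -0.35, or -0.19 relative to all genes. Bank1, a B cell scaffold protein with ankyrin repeats, was at 3116, 1820, 2647 and 2659 CPM, so that P-HC24 was the low library and the log2 ratio was -0.78 (-0.81 to -0.74). Lyn, the kinase that begins and restrains receptor signalling, was at 1235, 902, 1155 and 1032 CPM, with -0.45 (-0.50 to -0.41). Prkcb, the protein kinase C that leads to NF-kB, was at 988, 681, 949 and 891 CPM, with -0.54 (-0.59 to -0.48). In Int 1 of the 23 was lower, 0 were higher, and the median was -0.07. B-1-like cells gave 0 higher and 14 lower of 23 in Prog, and T cells 1 higher and 10 lower of 15. Over all genes compared in Prog, 13.1% were higher and 43.4% lower in B-1-like cells (median -0.20), and in T cells 13.9% and 47.4% (median -0.23). In Int 12.8% were higher and 7.04% lower in B-1-like cells (median 0.04), and in T cells 17.7% and 12% (median 0.02).

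Receptor components themselves were more even. Of the 10 compared genes of the receptor complex and its coreceptors, 2 were higher and 4 lower in Prog, with a median of -0.07 that becomes 0.09 relative to all genes. Cd79a, of the rule, was at 1975, 2594, 2251 and 2068 CPM, and Cd79b, its partner chain, at 986, 1104, 1165 and 1251 CPM. Ptprc, the phosphatase CD45, was at 976, 565, 737 and 814 CPM, lowest in P-HC24, with a Prog log2 ratio of -0.79 (-0.85 to -0.73).

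B lineage transcription factors followed the signalling genes, with 0 higher and 13 lower of 18 compared in Prog, a median of -0.37 and -0.21 relative to all genes. Ebf1, which specifies the lineage, was at 3751, 3015, 3348 and 3188 CPM. Mef2c, a factor for B cell survival, was at 2519, 1628, 1727 and 1896 CPM, so that P-LC24 stood above the rest. Bach2, which holds B cells back from plasma cell fate, was at 1937, 1321, 2014 and 1597 CPM, lower in the high-cholesterol library at both weeks, with -0.55 (-0.59 to -0.51) and -0.33 (-0.38 to -0.29). In Int 3 of the 18 were higher and 5 lower, with a median of -0.02. T cells gave 1 higher and 7 lower of 9 in Prog, beside the 47.4% of all their genes that were lower.

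Genes of antigen presentation were more often higher than lower in P-HC24. For MHC class II, which shows peptides to helper T cells, 5 of 11 were higher and 1 lower in Prog, with a median of 0.23, or 0.39 relative to all genes. Cd74, the invariant chain, was at 8701 CPM in P-LC24 and at 12040, 11836 and 11941 CPM in the other 3 libraries. H2-Aa and H2-Eb1, class II chains, had Prog log2 ratios of 0.33 (0.30 to 0.35) and 0.23 (0.20 to 0.26). The lower member was Ciita, the master regulator of the class II genes. In Int the class II median was -0.01, with 1 higher and 1 lower. T cells, which should lack class II, held 77.8, 315, 268 and 310 CPM of Cd74, with 7 of 7 class II genes higher in Prog (median 1.76). With the estimated free RNA subtracted, the members' class II median in Prog was 0.18 and the Prog log2 ratio of Cd74 was 0.42, against 0.47 as counted.

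For MHC class I, which shows peptides from inside the cell, 9 of 14 were higher and 1 lower in Prog (median 0.37, or 0.53 relative to all genes), and 6 were higher and 0 lower in Int (median 0.15). H2-D1 was at 1044, 1371, 1195 and 1596 CPM and H2-K1 at 1033, 1268, 1311 and 1620 CPM, higher in the high-cholesterol library at both weeks. B2m, the light chain shared by class I molecules, was at 1173, 1129, 866 and 996 CPM and stayed within the limit in both. In B-1-like cells 5 of 14 class I genes were higher in Prog and 2 in Int, with medians of 0.16 and 0.05. The difference between the cell types was not tested.

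Genes of respiration, protein turnover and translation were also mostly higher in P-HC24. Of 72 nuclear genes of oxidative phosphorylation 38 were higher and 1 lower in Prog (median 0.28, or 0.44 relative to all genes), of 29 proteasome genes 18 were higher and 4 lower (median 0.33, or 0.50 relative to all genes), and of 89 ribosomal protein genes 48 were higher and 8 lower (median 0.30). The Int medians of these groups were 0.02, 0.10 and 0.01. T cells gave Prog medians of 0.26 and 0.29 for the first and second group. Cox4i1, a subunit of the terminal respiratory complex, was at 430, 567, 503 and 559 CPM in the members. Psmb1, a subunit of the proteasome core, was at 218, 297, 251 and 260 CPM.

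Homing and quiescence genes had Prog medians a little below that of all genes, of which 38.9% were lower and 14.7% higher. Of 16 compared trafficking receptors 2 were higher and 9 lower in Prog (median -0.29, or -0.13 relative to all genes), and 3 were higher and 1 lower in Int (median 0.07). Gpr183, the oxysterol receptor that places B cells in the outer follicle, was at 630, 488, 515 and 492 CPM, highest in P-LC24. Ccr7, the receptor for entry into lymph nodes, was at 325, 394, 506 and 529 CPM, lower in P-LC24 than in the other libraries.

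Of 14 quiescence genes 1 was higher and 7 lower in Prog (median -0.30, or -0.14 relative to all genes). Foxp1, a repressor that keeps naive B cells at rest, was at 3056, 2373, 3474 and 3224 CPM, lowest in P-HC24. Klf2, which holds follicular cells in recirculation, was at 1104, 1280, 1503 and 1784 CPM, with log2 ratios of 0.21 (0.17 to 0.26) and 0.25 (0.20 to 0.29). In Int 3 of the list were higher and 2 lower, with a median of 0.01.

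Genes of survival signals were mixed. Of the 12 compared genes of BAFF and TNF family receptors and survival, 1 was higher and 5 lower in Prog (median -0.06, or 0.10 relative to all genes), and 0 were higher and 4 lower in Int (median 0.04). Bcl2, the survival protein, was at 245, 169, 195 and 211 CPM, and Mcl1, its relative, at 317, 320, 451 and 457 CPM. Mcl1 differed little between the libraries of the same week and was higher in both libraries of week 32. NF-kB feedback genes had medians of 0.02 in Prog, or 0.18 relative to all genes, and 0.10 in Int.

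Immediate early genes respond within minutes to stimulation or to handling of tissue. In Prog they gave no common direction in members, with 2 higher and 2 lower of 14 (median -0.10, or 0.06 relative to all genes). In Int 2 were higher and 6 lower of 17 (median -0.22, or -0.27 relative to all genes), beside 8.68% lower over all genes. B-1-like cells gave 1 higher and 8 lower of 17 in Prog, beside 43.4% lower over all their genes. In Int they gave 1 higher and 7 lower of 17, beside 7.04%. Fos was at 370, 249, 576 and 491 CPM. T cells of the same libraries gave 11 higher and 0 lower of 15 in Prog (median 0.40) and 15 higher and 0 lower of 16 in Int (median 0.77). The medians of members and T cells had opposite signs, in Prog only as long as the ratios were not centred, and the difference was not tested. Of B cell activation genes, 3 of 12 were higher and 1 lower in Int, with Cd83, an activation marker, at 451, 451, 369 and 599 CPM.

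Heat shock chaperones stood out in Int, where 10 of 13 were higher and 0 lower, with a median of 0.48. Hsp90ab1, the constitutive HSP90, was at 895, 871 and 778 CPM in the first 3 libraries and at 1757 CPM in I-HC32, a log2 ratio of 1.18 (1.12 to 1.23). Hspa8, the constitutive HSP70, was at 637, 715, 859 and 1318 CPM. In Prog 1 was higher and 1 lower, with a median of -0.04, or 0.12 relative to all genes. B-1-like cells also gave 10 higher of 13 in Int (median 0.73) and T cells 8 higher and 1 lower (median 0.42). Higher chaperone levels in I-HC32 were thus found in all 3 cell types.

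The unfolded protein response of the endoplasmic reticulum had 5 of 12 genes higher and 0 lower in Prog (median 0.18, or 0.34 relative to all genes) and 6 higher and 1 lower in Int (median 0.25). Calr, the lectin chaperone calreticulin, was at 183, 262, 227 and 291 CPM, higher in the high-cholesterol library at both weeks. Hsp90b1, the HSP90 of this compartment, was at 234, 208, 168 and 297 CPM. The 13 mitochondrially encoded genes had 6 higher and 3 lower in Prog (median 0.24, or 0.40 relative to all genes) and 0 higher and 7 lower in Int (median -0.29). With members limited to 5% mitochondrial UMIs these medians were 0.04 and -0.19. That limit is set on the UMIs of these same genes, so the smaller medians are in part fixed by it and are descriptions.

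Most genes of sterol synthesis and uptake were too low to compare. Only 4 of the 22 genes of sterol synthesis and uptake could be compared in Prog, with 1 higher (Fdps) and 1 lower (Srebf2, the regulator of sterol synthesis) and a median of 0.07, or 0.23 relative to all genes. In Int 6 could be compared, with 3 higher and 0 lower and a median of 0.26. Cyp51, an enzyme of sterol synthesis, was at 27.3, 32.2, 52.1 and 69.2 CPM, with an Int log2 ratio of 0.41 (0.18 to 0.64). Fdps, the farnesyl diphosphate synthase, was at 11.4, 22.8, 27.3 and 37.5 CPM, with 1.00 (0.61 to 1.39) in Prog and 0.46 (0.14 to 0.77) in Int. In Prog it entered the comparison only through P-HC24, where 10.1% of members held a UMI, against 5.96% in P-LC24. Its place among the higher genes of Prog is thus a description. Of 9 compared genes of the liver X receptor target list, 3 were higher and 3 lower in Prog and 3 higher and 1 lower in Int. Abca1, the sterol exporter, was at 218, 171, 181 and 161 CPM, lower in the high-cholesterol library at both weeks, with -0.35 (-0.46 to -0.24) and -0.17 (-0.31 to -0.03).

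Type I interferon-stimulated genes had 3 higher and 3 lower of 9 in Prog (median -0.18, or -0.02 relative to all genes) and 2 higher and 3 lower of 8 in Int. Ifi27l2a was at 402, 631, 412 and 297 CPM, and its log2 ratio turned from 0.65 (0.58 to 0.72) to -0.47 (-0.57 to -0.37). Genes of Toll-like receptors and innate sensing had 0 higher in both, with 3 of 7 (Tlr1, Irak1 and Cd180) lower in Prog and 1 in Int. The Prog median was -0.25, or -0.09 relative to all genes, of which 38.9% were lower. Cd180, a Toll-like receptor relative on B cells, was at 161, 109, 158 and 106 CPM, with -0.57 (-0.70 to -0.43) and -0.58 (-0.75 to -0.42). Cell cycle genes had 8 and 5 compared members with medians of -0.03, or 0.13 relative to all genes, and 0.00.

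**Figure D5:**
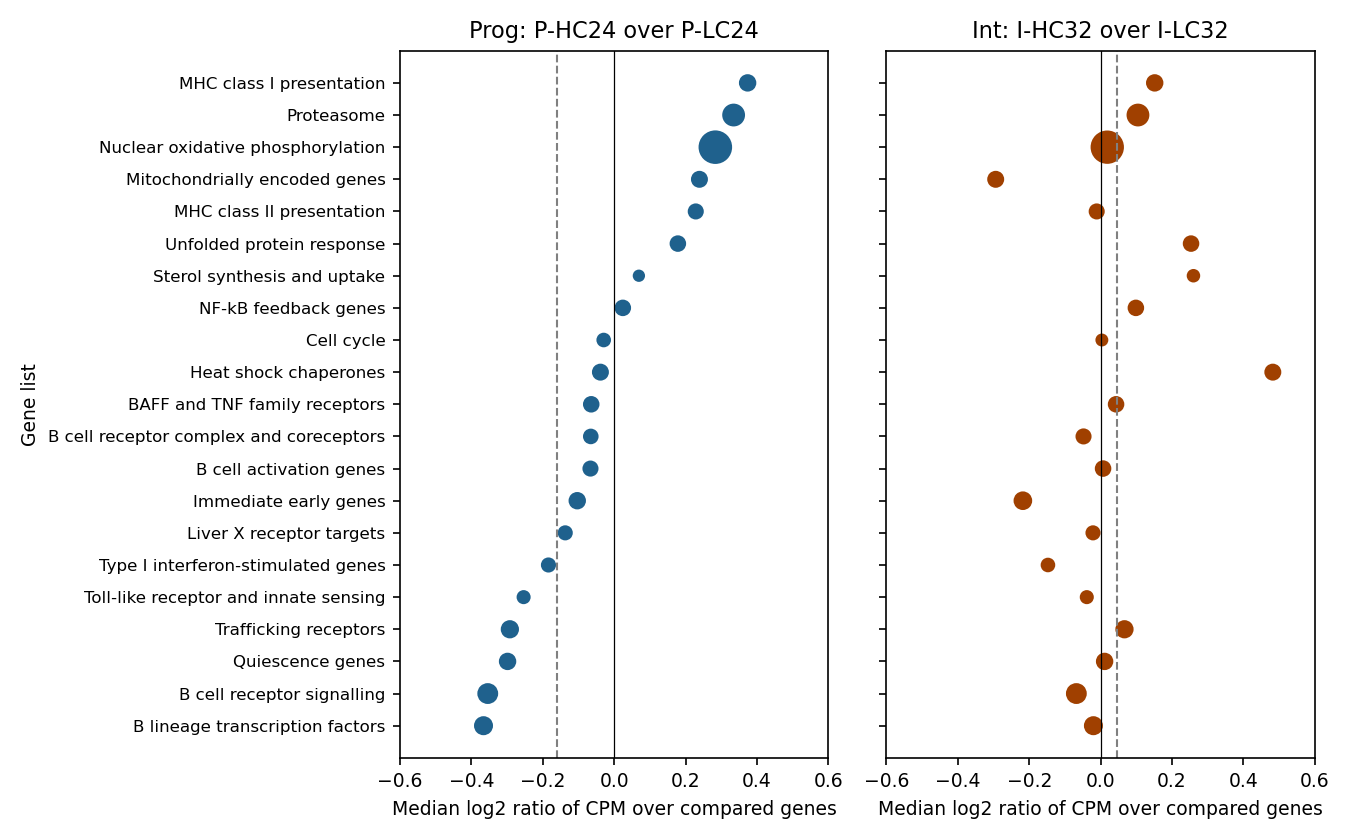
Median log2 ratio of CPM over the compared genes of each list in kappa follicular B cells, for Prog (left, P-HC24 over P-LC24) and Int (right, I-HC32 over I-LC32). The area of a point grows with the number of genes compared, and dashed lines mark the median of all compared genes, -0.16 and 0.05. MHC class I lies at 0.37 and B lineage transcription factors at -0.37 on the left, and heat shock chaperones at 0.48 on the right.

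Genes were ranked by ratio among those with at least 200 UMIs over both libraries, a UMI in at least 10% of members of either library and at least 20% of the CPM of T cells, myeloid cells and cells with at least 10 Prg4 UMIs. Mitochondrial, haemoglobin and antigen receptor genes were not ranked. A gene could reach the share of members in 1 library only, as Cma1 did in Int. In Prog, Angptl1, Cd55os, Clec2g, Ffar1, Gm27008, Gm15336, Usp40, Hdac7 and Crybg3 reached it only in P-LC24, where their CPM was highest. Gm12185, Hdac9 and Gm43388 reached it in both libraries of Prog. Together these are the 12 lowest of Prog. The places of genes that reached the share in 1 library only are descriptions. The lowest ranked gene of Prog was Angptl1, a secreted angiopoietin-like protein, at 71.6 CPM in P-LC24 and 19.5, 16.6 and 18.1 CPM in the other libraries (log2 ratio -1.88, -2.18 to -1.59). Clec2g, a C-type lectin, was at 56.3, 20.6, 18.0 and 31.7 CPM, also highest in P-LC24. Ffar1, a receptor for free fatty acids, was at 28.8, 11.3, 22.1 and 23.7 CPM. The class IIa histone deacetylases Hdac9, at 167, 78.2, 119 and 77.4 CPM, and Hdac7, at 40.8, 19.3, 27.8 and 20.3 CPM, were also among the 12 lowest, and both were lower in the high-cholesterol library at both weeks. The remaining 7 of the 12 had log2 ratios from -1.75 (Cd55os, antisense to Cd55) to -1.07 (Crybg3), with P-LC24 highest in each. In B-1-like cells the Prog ratios of Angptl1, Clec2g, Ffar1, Hdac9 and Hdac7 were -1.63, -0.83, -1.01, -0.72 and -0.66. In T cells they were -1.07, 1.75, 0.05, 0.42 and -1.18. Angptl1, Clec2g and Ffar1 were at most at 3.06 CPM in T cells of P-LC24 and P-HC24.

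The highest ranked gene of Prog was Vim, with a log2 ratio of 1.32 (1.26 to 1.38) from the CPM given above, and 1.23 (1.18 to 1.27) in Int. Lmna, the nuclear lamin A/C, was at 39.6, 89.7, 139 and 277 CPM, with 1.18 (0.98 to 1.38) and 1.00 (0.87 to 1.13). Tagln2, an actin-binding protein, was at 254, 520, 590 and 1170 CPM, with 1.03 (0.95 to 1.11) and 0.99 (0.93 to 1.05). In each of these 3 genes P-LC24 was lowest and I-HC32 highest. In B-1-like cells the Prog and Int ratios were 0.49 and 0.83 for Vim, 0.02 and 0.35 for Lmna, and 0.25 and 0.73 for Tagln2, and in T cells 1.29 and 0.77, 1.06 and 0.86, and 0.95 and 0.73. With an estimated share of free RNA subtracted, the ratios in members were 1.40 and 1.26 for Vim. Rrad, a Ras-related GTPase, was at 27.1, 53.0, 53.6 and 47.6 CPM.

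The highest ranked genes of Int included genes of another cell type. Cma1 and Mcpt4, mast cell proteases, were at 7.51, 21.3, 11.2 and 47.6 CPM and at 6.44, 16.9, 9.98 and 41.4 CPM. T cells held 5.14, 12.8, 8.26 and 41.4 CPM of Cma1, the same order of libraries. The Int log2 ratio of Cma1 in members was 2.09, and 2.18 with the estimated free RNA subtracted. Crip2, a LIM domain protein, was at 7.27, 23.5, 21.7 and 60.2 CPM in members, and Flt3, a cytokine receptor of progenitors, at 21.1, 29.4, 29.8 and 86.8 CPM against 1.48 to 4.22 CPM in T cells. Atrnl1, an attractin-like membrane protein, was at 145, 205, 231 and 551 CPM. Replication-type histone genes H1f4, at 42.6, 62.8, 9.83 and 36.3 CPM, and H2bc4, at 33.7, 40.8, 14.7 and 42.3 CPM, were lowest in I-LC32.

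The lowest ranked genes of Int were 1700029H14Rik, at 4.53, 4.23, 32.1 and 12.6 CPM, then Hint2, a mitochondrial nucleotide hydrolase, at 17.5, 22.8, 24.4 and 11.6 CPM, and Impact, a regulator of translation, at 27.3, 23.7, 44.1 and 21.3 CPM. Tcof1, a nucleolar protein, was at 105, 72.6, 146 and 82.5 CPM, lower in the high-cholesterol library at both weeks. The 12 lowest ran from -1.35 to -0.79. In T cells the Int ratios of these 3 genes were -1.38 for 1700029H14Rik, -0.17 for Hint2 and -0.01 for Impact, and in B-1-like cells that of 1700029H14Rik was -0.70.

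Across 5591 genes compared in both, the Prog and Int ratios had a Spearman correlation of 0.13, given as a description because genes are not replicates. Past 1.2-fold, 164 genes were higher in both, 216 lower in both, 269 lower in Prog and higher in Int, and 52 higher in Prog and lower in Int. After centring on each median the counts were 203, 182, 97 and 133 in the same order.

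The libraries served as replicates in one test, of kappa against lambda follicular cells. The lambda cells met the same rule with more Iglc1, Iglc2 and Iglc3 than Igkc UMIs and no UMI of Mcc, and numbered 69, 47, 65 and 19. With lambda cells of any Mcc count included, they were 4.63%, 4.18%, 5.19% and 2.67% of follicular cells. UMIs were summed per library and class and tested with edgeR's quasi-likelihood test with library as a block over 9366 genes, leaving out immunoglobulin genes. At a Benjamini-Hochberg adjusted p under 0.05, 7 genes (0.0747%) were higher in kappa and 7 (0.0747%) in lambda cells, and 478 genes had an unadjusted p under 0.05. Without the block, and with DESeq2, 1 gene was higher in kappa and 0 in lambda cells.

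The gene called in every one of these fits was Gm30211, a long noncoding RNA at chr6:70695829-70730454 on the plus strand of GRCm39. It was at 305, 224, 251 and 298 CPM in kappa cells and at 87.3, 42.3, 114 and 56.0 CPM in lambda cells (edgeR log2 difference 1.79, SE 0.172, adjusted p = 6.15e-10), higher in 4 of 4 libraries. Its span contains Igkc on the same strand, so it is tied to a gene of the rule and is no independent finding. The long noncoding 2010309G21Rik (chr16:18870082-18925657, plus strand), whose span contains Iglc1 and Iglc3 on the other strand, was at 125, 77.0, 104 and 92.7 CPM in kappa cells and 87.3, 38.1, 39.0 and 11.2 CPM in lambda cells (edgeR adjusted p = 0.0223). It too is tied to genes of the rule and is no independent finding. Its edgeR adjusted p was 0.441 without I-LC32, 0.125 without I-HC32, 0.0672 with the lambda cells holding Mcc kept and 1.00 without the replicate block, and the DESeq2 value was 0.876.

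Cd86, a costimulatory molecule for T cells, was at 651, 587, 807 and 715 CPM in kappa and at 498, 461, 579 and 571 CPM in lambda cells. The kappa value was higher in 4 of 4 libraries, with an edgeR log2 difference of 0.42 (SE 0.0966) and an adjusted p of 0.0492. The adjusted p was 0.287, 0.0836, 0.525 and 0.0589 when each library in turn was left out, and 0.469 with DESeq2. Over all settings of the test it ran from 0.000293 without a filter on low genes to 1.00 without the block.

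Of the other called genes, Lyz2, Gzma, Ccl5 and S100a4 were higher in kappa cells in 4 of 4 libraries. The lambda cells held only 382139, 238771, 284896 and 90471 UMIs in total. For genes at low CPM in this paragraph, the direction in I-HC32 thus rests on few counts. In I-HC32 Ccl5 was at 24.0 CPM in kappa and 0 in lambda cells, and S100a4 at 29.4 and 11.2 CPM. Lyz2 was at 93.0, 207, 131 and 378 CPM in kappa and at 13.2, 102, 85.2 and 157 CPM in lambda cells, and Gzma, a granzyme of cytotoxic cells, at 25.6, 43.5, 23.9 and 9.31 CPM in kappa and 5.29, 0, 0 and 0 in lambda cells. Il1b, the cytokine interleukin-1 beta, was at 23.5, 21.9, 6.995 and 11.03 CPM in kappa and at 233, 8.47, 128 and 0 CPM in lambda cells, so that the lambda values were high in P-LC24 and I-LC32 and not in the other libraries. Slc7a11, Hdc, Ccl4 and Retnlg, also called higher in lambda cells, were likewise below the kappa value in P-HC24 and I-HC32, and Itsn1 in P-HC24. Slpi was higher in lambda cells in 4 of 4 libraries. Without P-LC24 the log2 difference of Ccl4 turned from -2.78 to 0.62 (edgeR adjusted p = 1.00). None of the genes of this paragraph was called with DESeq2 or without the block. The part of RNA from other cells in these calls was not tested.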

How the data were processed

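The authors deposited UMI counts per gene for the barcodes called as cells, made with Cell Ranger 9.0.1 on GRCm39, as whole numbers that carry no correction for free RNA. Barcodes with at least 500 UMIs, 300 genes and at most 10% mitochondrial UMIs were kept here. Members, gene lists and named genes were chosen with earlier results of these data known. Counts of members were summed per library and divided by the total (CPM), and ratios were given exact intervals conditional on both counts (95%, counting error only). Named genes were the 12 highest and 12 lowest ratios of each comparison among genes with at least 200 UMIs and at least 20% of the CPM of T, myeloid and Prg4 cells, the 3 most abundant genes of each list, the genes of the rule and the markers, and the 5 genes of lowest p in each direction between kappa and lambda cells. Some genes that the rule names are not reported here. Genes named otherwise, including those set against B-1-like cells, were chosen after their values were seen.

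Kappa and lambda sums were compared with edgeR 4.0.16 (filterByExpr, TMM, library block) and, as an alternative, DESeq2 1.42.0 in R 4.3.3. Each library gave both sums, so the block pairs cells of the same mice. The p-values measure the spread between 4 libraries, which came from 2 groups of mice sampled again, and the libraries are therefore not independent. On simulated counts, the kappa against lambda test recovered 47.5% of 2-fold and 85.7% of 4-fold changes and called 0.0334% of unchanged genes. The intervals were tried on counts drawn with counting error only. That trial cannot speak to the spread between mice or libraries. Shares and gene counts were also taken after thinning to 2000 UMIs. Doublets were left in, and Scrublet (scanpy 1.11.5) was used as an alternative at 0.8% per 1000 barcodes. Gene positions and lengths came from GENCODE for GRCm39. Kept barcodes held 41238539, 69311744, 68788780 and 86280132 UMIs in total, in the order of libraries used above. Python 3.11.15, numpy 2.4.6, pandas 2.3.3, scipy 1.17.1 and matplotlib 3.10.9 were used.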

Additional observations from a re-analysis of the deposited data

Results flagged for a closer look

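In the members, 269 genes were lower in Prog and higher in Int, and 52 were higher in Prog and lower in Int, against 164 higher in both and 216 lower in both. After centring each ratio on its median the counts were 97 and 133 in opposite directions and 203 and 182 in the same direction. The mitochondrially encoded genes as a list had median log2 ratios of 0.24 in Prog and -0.29 in Int, among cells already limited by the UMIs of these genes. Each direction rests on 1 library a side, and the difference between the weeks was not tested.

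Barcodes over the mitochondrial limit, which the comparisons leave out, held further cells that met the gene rule, 8 in P-LC24, 25 in P-HC24, 16 for I-LC32 and 19 for I-HC32. They were 0.551%, 2.27%, 1.33% and 2.54% of all barcodes meeting the gene rule, with medians of 1391, 1233, 1851.5 and 1589 UMIs, and held 729, 681, 792 and 489 CPM of Ighd.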

How the results depend on the processing

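No library had a replicate, so counting intervals leave out the spread between mice, needles and library preparations. Members as a share of kept barcodes, in the order used above, became 17.0%, 7.33%, 8.47% and 4.54% with at least 2 Fcer2a UMIs and 17.8%, 9.79%, 10.5% and 6.01% after thinning to 2000 UMIs. With a 5% mitochondrial limit they became 29.9%, 17.4%, 16.4% and 10.8%. Of barcodes with Cd79a, with the limit kept at 10%, they were 41.9%, 21.3%, 22.3% and 13.2%. Within each week the order held in all of these.

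Genes higher and lower by 1.2-fold numbered 1927 and 4702 in Prog and 2601 and 1811 in Int with at least 20 UMIs and no minimum share of cells, and 98 and 426 in Prog and 152 and 61 in Int at 1.5-fold. After centring they numbered 1512 and 1191 in Prog. With immunoglobulin, ribosomal and mitochondrial genes left out of the total they numbered 1346 and 1399 in Prog, 49.0% of them higher. Counted after centring, an alternative chosen after seeing the data, 133 genes were higher in Prog and lower in Int and 97 the reverse. Among 268 named ratios, 1 of those past 1.2-fold turned, that of H2bc4 in Prog, from 0.27 to -0.024 with at least 2 Fcer2a UMIs. Ratios within 1.2-fold could also turn with centring, as Hsp90ab1 did in Prog, from -0.04 to 0.12. The cause of these shifts was not tested.

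The leading heavy V gene took 14.3%, 16.7%, 33.3% and 33.3% of the 28, 12, 12 and 3 members with at least 3 heavy V UMIs. It was Ighv9-3, Ighv1-19, Ighv1-9 and Ighv1-9. In I-LC32 Ighv1-9 was also tied for first over all members, whereas the gene differed from the leaders given above in P-LC24, P-HC24 and I-HC32. With 3 such members, I-HC32 held too few cells to name a leader. Between kappa and lambda cells, 30 and 21 genes were higher in kappa and lambda without a filter, 1 and 0 without the replicate block, 1 and 0 with DESeq2, and 4 in kappa with lambda cells holding Mcc kept. Leaving out each library gave 3 to 12 genes in kappa and 0 to 17 in lambda cells: without P-LC24 0 were higher in lambda cells, without P-HC24 12 and 17, and without I-LC32 3 and 4.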

Other observations

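Scrublet at its assumed rate marked 33, 11, 16 and 3 members, with the libraries in the order used above. Igkc and the lambda constant genes had equal counts in 1, 0, 5 and 1 members, and Igkc was under 2 times the lambda count in 7.42%, 4.09%, 5.14% and 1.51% of members. More Ighd than Ighm UMIs were held by 6.999%, 7.80%, 8.51% and 4.53% of members, against 0.259%, 0.419%, 0.959% and 0.321% of B-1-like cells, whose cells were deeper.

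Sdc1, the syndecan of plasma cells, was seen in 1.46%, 1.76%, 1.77% and 1.79% of members and in 0.203% to 0.531% of T cells, while Jchain had at most 5 UMIs in a library.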
